A study of Homo sapiens with 58 samples.

Results

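HaCaT-EGFR cells, kept without serum and given epidermal growth factor (EGF), were compared with and without gefitinib, an inhibitor of the EGFR tyrosine kinase. The comparison rested on 5 of the 58 arrays of the series, all from batch 6 as the labels name it. Gefitinib plus EGF was measured on 2 arrays (4 h and 8 h, 1 each) and EGF without inhibitor on 3 arrays (4 h replicates 1 and 2, and 8 h). HaCaT cells are human keratinocytes that grow without limit in culture, and HaCaT-EGFR was made from them by forced expression of wild-type EGFR. The series holds 5 such lines in 18 conditions on Affymetrix U133 Plus 2.0 arrays, and RNA was measured in bulk, so fewer cells of a type and less RNA per cell cannot be told apart. The gefitinib dose and the order in which gefitinib and EGF were given are not stated in the sources used here. Nothing in the labels says that arrays of 1 condition came from separate cultures. The p-values measure the spread between arrays of the same condition and batch, pooled over all 58 arrays of the series. Some of these groups, gefitinib plus EGF among them, hold both 4 h and 8 h arrays. The spread between arrays may be technical.

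EGF binds EGFR, a receptor tyrosine kinase, and the phosphorylated receptor starts the RAS-RAF-MEK-ERK cascade and the PI3K-AKT cascade. ERK raises transcription of early genes and of its own inhibitors, among them the dual-specificity phosphatases (DUSP) and Sprouty proteins (SPRY). AKT keeps FOXO transcription factors out of the nucleus, and FOXO factors raise genes of cell cycle arrest, protein breakdown and cell death. In keratinocytes EGFR drives proliferation and migration, and the cells make several of its ligands themselves.

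Of 19775 genes, each represented by 1 probe set, 50 were lower with gefitinib (0.253% of the genes tested) and 32 were higher (0.162%) at an adjusted p under 0.05, by limma with Benjamini-Hochberg adjustment over all genes. The falls included the ERK feedback genes DUSP4, DUSP6, SPRY4 and SPRY2, the EGFR ligands HBEGF, EREG and TGFA, the chemokines CXCL1, CXCL2, CXCL3 and CXCL8, and MYC. The rises included the FOXO-induced genes FBXO32, GADD45A, CDKN1B and SESN1 and the cell death genes BMF and TNFSF10. The falls were between 0.46 and 2.45 log2 units in size, and 28 of the 50 were of 1 log2 unit or more, which is a 2-fold difference. The rises were between 0.47 and 2.04 log2 units, and 10 of the 32 reached 1 log2 unit.

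The calls depended on single arrays. Without the 8 h gefitinib array 3 genes were higher and 3 lower, and without the 4 h gefitinib array 0 genes passed in either direction in limma. Without EGF 4 h replicate 1, the counts were 20 higher and 15 lower, and without replicate 2 they were 21 and 32. With a single gefitinib array left, its spread is assumed to be that of the other groups. The direction of the 82 genes could not change there, since their groups do not overlap. The adjusted p of the 82 was 0.0743 to 0.598 with the 8 h array alone and 0.0137 to 0.693 with the 4 h array alone. At an unadjusted p under 0.05, 1822 genes passed in the comparison of all 5 arrays. The medians of the 5 arrays were 6.133 to 6.230, and correlations between them over all genes were 0.9886 to 0.9959, lowest for EGF 4 h replicate 1. Of 8 measured keratinocyte markers 0 passed, 4 lay below 0 and 4 above, and the median change was -0.01. Among them, KRT5 averaged 12.23 with gefitinib and 12.17 without, and KRT14 averaged 12.48 with gefitinib and 12.43 without (log2 values, n = 2 and 3).

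The genes printed with promoter sequence below are those among the 82 with the largest changes whose first 250 bases before the transcription start held 1 of 5 short motifs. The stretches are RefSeq sequence of GRCh38.p14, 5′ to 3′ on the strand of the gene, with the motif in capitals. For genes with several starts the first one listed was used, and that of SPRY4 lies inside the gene's outer bounds. The AP-1 motif TGANTCA is bound by FOS and JUN family proteins, GCGNGGGCG by EGR proteins and GTAAACA by FOXO proteins. TGACGTCA is the cyclic AMP response element, and the CArG box is bound by serum response factor.
LINC00973, CArG, chr3:98914316-98914374, plus strand: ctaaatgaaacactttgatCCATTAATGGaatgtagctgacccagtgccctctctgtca
LINC00973, AP-1, chr3:98914351-98914417, plus strand: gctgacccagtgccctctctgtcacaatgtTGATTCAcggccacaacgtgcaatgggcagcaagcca
IL1A, AP-1, chr2:112784494-112784535, minus strand: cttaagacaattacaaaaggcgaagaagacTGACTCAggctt
CXCL8, AP-1, chr4:73740402-73740468, plus strand: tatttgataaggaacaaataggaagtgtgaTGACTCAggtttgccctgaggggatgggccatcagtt
OTUD1, EGR, chr10:23438848-23438916, plus strand: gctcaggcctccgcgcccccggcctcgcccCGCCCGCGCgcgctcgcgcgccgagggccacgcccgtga
OTUD1, FOXO, chr10:23439016-23439074, plus strand: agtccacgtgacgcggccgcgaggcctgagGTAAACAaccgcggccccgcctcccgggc
SPRY4, EGR, chr5:142324404-142324472, minus strand: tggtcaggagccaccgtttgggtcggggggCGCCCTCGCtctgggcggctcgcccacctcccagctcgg
PLAUR, AP-1, chr19:43670319-43670385, minus strand: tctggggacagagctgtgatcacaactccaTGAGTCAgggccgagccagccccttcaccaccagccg

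Both strands were searched, and no motif was a form of another. A promoter was held for 34 of the 50 genes that fell and for 22 of the 32 that rose. The AP-1 motif stood in 5 of the 34 promoters of genes that fell (14.7%) and in 0 of the 22 of genes that rose, against 6.6% of all 27305 promoters of the same length. The EGR motif stood in 6 of 34 (17.6%) and in 5 of 22 (22.7%), against 8.25% of all promoters. The FOXO motif stood in 0 of 34 and 1 of 22 (4.55%), against 2.98% of all. The cyclic AMP response element stood in 1 of 34 and 0 of 22 (1.77% of all), and the CArG box likewise in 1 of 34 and 0 of 22 (1.14% of all). These matches are a description of the letters and show no binding.

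The genes that limit ERK signaling formed the list with the lowest median. Of 22 measured members, 9 fell and 0 rose, and the median change was -0.54, against -0.01 over all genes. With batch 6 alone 1 member fell, with the 5 arrays alone 7, and with a trended and robust variance prior 9. DUSP6, a phosphatase that inactivates ERK in the cytoplasm, had log2 values of 9.45 (4 h) and 9.70 (8 h) with gefitinib, against 10.97 and 10.70 (4 h) and 10.95 (8 h) without it. The gefitinib arrays both lay below every array without inhibitor. The difference was -1.30 ± 0.271 (SE, adjusted p = 0.0164 by limma), or 2.46-fold lower with gefitinib.

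DUSP4, a nuclear phosphatase of ERK, measured 8.19 and 8.42 with gefitinib, against 10.07, 9.75 and 9.78 without it (-1.56 ± 0.294, adjusted p = 0.00775 by limma). SPRY4, which blocks the pathway upstream of RAF, measured 5.81 and 5.96 with gefitinib, against 7.29, 7.15 and 7.05 (-1.28 ± 0.277, adjusted p = 0.0219). SPRY2 measured 7.70 and 7.77, against 9.04, 8.56 and 8.73 (-1.04 ± 0.158, adjusted p = 0.00106). In each of these genes the groups were separated by more than the range within either group. ERRFI1, which binds the EGFR kinase domain and inhibits it, measured 10.62 and 10.73 with gefitinib, against 12.14, 11.74 and 11.76 without it (-1.20 ± 0.242, adjusted p = 0.0118). The other members that fell were PHLDA1 (-1.30), DUSP5 (-1.11), DUSP2 (-0.91) and TRIB1 (-0.81). DUSP10, a phosphatase of the stress kinases JNK and p38, lay on the other side of 0 without passing (0.74 ± 0.258, adjusted p = 0.243). Without EGF 4 h replicate 1, which held the highest value of DUSP4, SPRY4, SPRY2 and ERRFI1, 2 members of the list fell and 1, DUSP10, rose. Without the 8 h gefitinib array 1 member fell, and without the 4 h array 0 did.

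**Figure D1:**
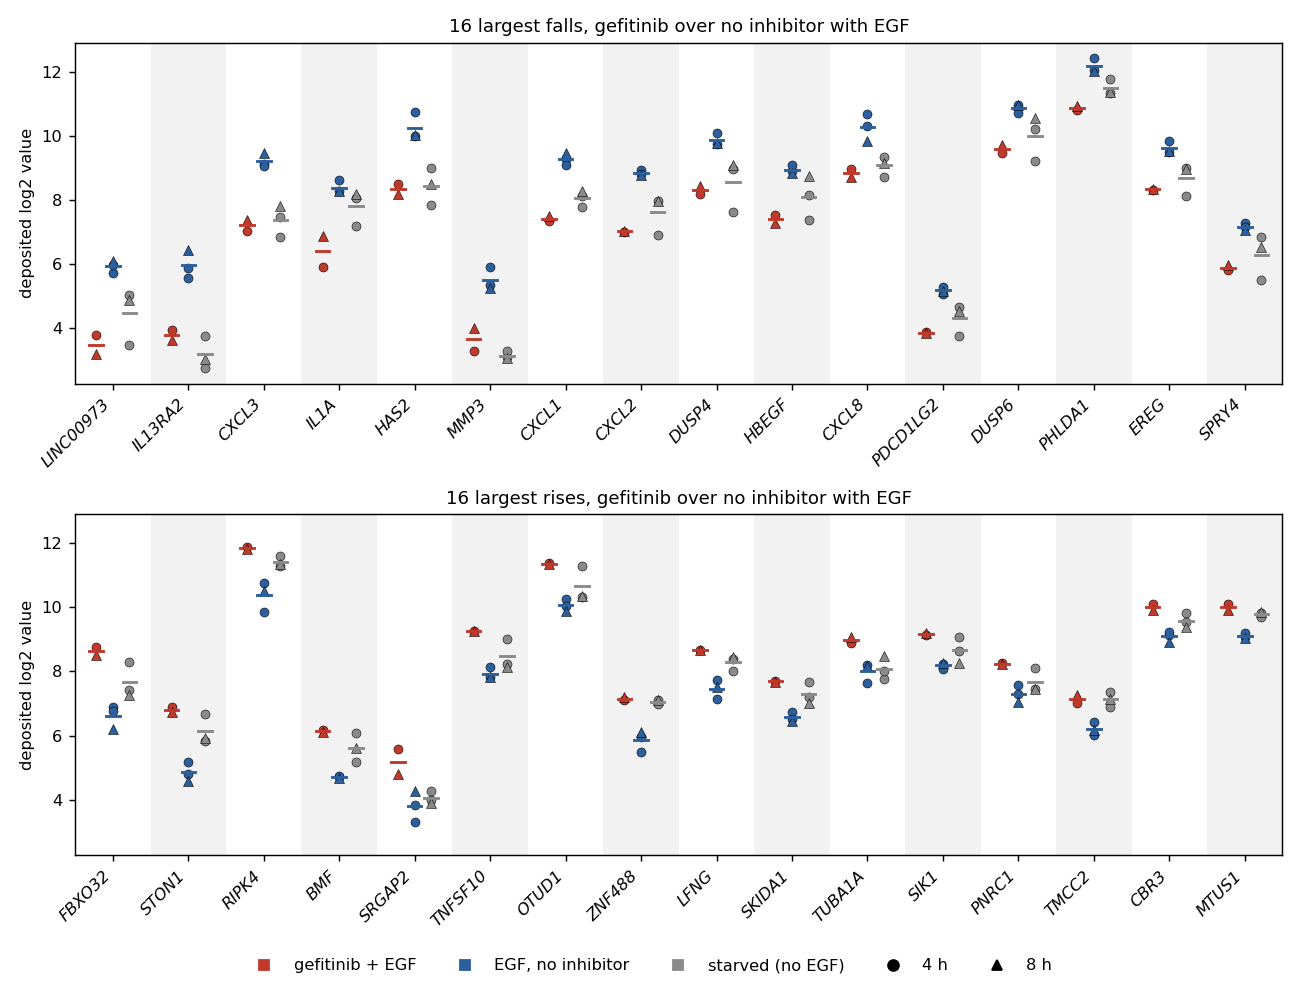
Deposited log2 values (y axis) of the 16 genes with the largest falls (top) and the 16 with the largest rises (bottom) with gefitinib plus EGF (red), EGF without inhibitor (blue) and starved cells without EGF (grey), all HaCaT-EGFR of batch 6. Circles are 4 h arrays, triangles 8 h arrays and bars group means. In every gene shown the red points do not overlap the blue ones.

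Among the ERBB receptors and ligands 3 of 14 measured genes fell, all of them ligands of EGFR, and 0 rose. The list median was 0.09. HBEGF, the heparin-binding ligand, measured 7.54 and 7.29 with gefitinib, against 8.90, 9.09 and 8.83 without it (-1.53 ± 0.342, adjusted p = 0.0288 by limma). TGFA measured 8.31 and 8.25, against 9.60, 9.24 and 9.50 (-1.17 ± 0.178, adjusted p = 0.00106). EREG (epiregulin) measured 8.31 and 8.34, against 9.82, 9.48 and 9.52 (-1.29 ± 0.235, adjusted p = 0.00659). All 3 ligands were lower in both gefitinib arrays than in any array without inhibitor. The receptor EGFR itself measured 9.84 and 9.81 with gefitinib, against 9.75, 9.62 and 9.79 without it, and its change of 0.11 ± 0.14 did not pass (adjusted p = 0.931). These values are from 1 probe set, and transcripts of the introduced and of the cells' own EGFR were not told apart. ERBB3, the receptor without an active kinase, was at 9.02 and 8.70 with gefitinib, against 8.28, 8.14 and 8.14, and missed the threshold (0.67 ± 0.173, adjusted p = 0.0667).

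Cytokines, chemokines and prostaglandin synthesis genes had 6 of 33 members that fell, 0 that rose and a median of -0.31. The chemokines that attract neutrophils, CXCL1, CXCL2, CXCL3 and CXCL8, were among them. CXCL8 (interleukin 8), whose AP-1 stretch is printed above, measured 8.96 and 8.71 with gefitinib, against 10.68, 10.30 and 9.83 without it (-1.43 ± 0.297, adjusted p = 0.016 by limma). CXCL1 measured 7.34 and 7.49, against 9.27, 9.07 and 9.47 (-1.85 ± 0.303, adjusted p = 0.00285). CXCL3 was 4.0-fold lower with gefitinib (-2.00 ± 0.333) and CXCL2 3.56-fold lower (-1.83 ± 0.347). CXCL1, CXCL2 and CXCL3 are close paralogs, and probe sets on such genes can bind more than 1 transcript, so the share of each is uncertain. IL1B, an interleukin 1 cytokine, measured 7.69 and 7.95 with gefitinib, against 9.59, 8.88 and 8.60 (-1.20 ± 0.267, adjusted p = 0.0265). IL1A, the other interleukin 1 agonist, fell most at 4 h, to 5.91, and was 6.88 at 8 h, against 8.61, 8.26 and 8.27 without inhibitor (-1.98 ± 0.348, adjusted p = 0.00409). A dimmer probe set of IL1A (mean 5.16 over the 5 arrays compared, against 7.59 for the one used) differed by 0.71 in the other direction, also without overlap between the groups. LIF, an interleukin 6 family cytokine, had a change of -1.09 ± 0.278 that missed the threshold (adjusted p = 0.0648).

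The immediate-early transcription factors did not move as a group. Of 31 members 1 fell, MYC, and the list median was -0.08. MYC measured 8.03 and 8.26 with gefitinib, against 10.04, 9.08 and 8.83 without it (-1.17 ± 0.258, adjusted p = 0.0254 by limma). EGF 4 h replicate 1 lay furthest from the gefitinib arrays. FOSL1, an AP-1 subunit, measured 7.34 and 7.33 with gefitinib, against 8.82, 8.87 and 8.85, and missed the threshold (-1.51 ± 0.370, adjusted p = 0.0566). EGR1, a zinc finger factor, measured 13.29 and 13.64 with gefitinib, against 13.64, 13.44 and 13.38, so its groups overlapped. FOS had values of 6.74 and 7.21 with gefitinib, against 6.65, 5.95 and 6.02 without it (0.77 ± 0.42, adjusted p = 0.631).

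Among the MYC network and ribosome biogenesis genes 2 of 21 fell, MYC and RRP12, a factor of ribosomal subunit export, and the median was -0.20. With the 5 arrays alone, batch 6 alone or times matched, 0 members of this list passed. Single genes outside the list, chosen after their values were seen, were NOP2 (-0.58), an rRNA methyltransferase, the helicase DDX21 (-0.53), KRR1 (-0.56), RPF1 (-0.46) and the exosome subunit EXOSC4 (-0.63). The nucleolar protein gene CCDC86, whose promoter holds the cyclic AMP response element, fell by 0.72 on the log2 scale. DDX21 measured 10.73 and 10.63 with gefitinib, against 11.25, 11.21 and 11.15 without it. EIF2B2, a subunit of the exchange factor of translation initiation, was lower by a similar size (-0.56 ± 0.122, adjusted p = 0.0219 by limma).

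Genes of the cell surface, matrix and metabolism made up further falls. HAS2, which makes hyaluronan, measured 8.49 and 8.17 with gefitinib, against 10.75, 9.99 and 10.02 without it (-1.93 ± 0.353, adjusted p = 0.00659 by limma). Of 20 plasminogen activators and matrix proteases 2 fell, MMP3 (stromelysin 1, -1.86 ± 0.374) and PLAUR (the urokinase receptor, -1.16 ± 0.230). The collagenase MMP1 had a change as large as that of MMP3 and missed the threshold (-1.86 ± 0.496, adjusted p = 0.0771), while MMP13 lay on the other side of 0 (1.35 ± 0.531, adjusted p = 0.338). Of 16 basal keratinocyte and hemidesmosome genes LAMB3, a laminin chain of the basement membrane, was the member that fell (10.21 and 10.18 with gefitinib, against 11.26, 11.40 and 11.41). Of 25 hypoxia-type and glycolysis genes 2 fell, VEGFA (-1.0 ± 0.195) and hexokinase HK2 (-0.96 ± 0.162). Of 22 ATF4 and ER stress genes the pseudokinase gene TRIB3 fell (-0.87 ± 0.179). The most negative log2 difference was that of the long noncoding RNA LINC00973, at 3.77 and 3.18 with gefitinib, against 5.72, 5.96 and 6.09 (-2.45 ± 0.491, adjusted p = 0.0118). IL13RA2, a decoy receptor of interleukin 13, followed (-2.18 ± 0.431), with 3.92 and 3.61 under gefitinib, against 5.57, 5.86 and 6.42. On the gefitinib arrays both genes lay well below the array medians, and LINC00973 measured 2.93 and 2.89 with gefitinib in serum. No detection calls were used, so both differences may be lower bounds and their rank is uncertain. MMP3 (3.28 and 4.00 with gefitinib) and PDCD1LG2 (3.87 and 3.83) lay about as low. SRGAP2 and DUSP2 lay below the array medians on all 5 arrays. BMF and STON1 lay below them on the arrays without inhibitor, and SLCO4A1 on the gefitinib arrays. The sizes of these changes are uncertain as well.

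The remaining falls, chosen after their values were seen, were spread over several roles. They were the immune checkpoint ligand PDCD1LG2 (-1.32), HS3ST1 (-1.03) of heparan sulfate synthesis, GPAT3 (-1.01) of glycerolipid synthesis, and the transporters SLCO4A1 (-0.99) and SLC4A7 (-0.66). PHLDA2 (-0.74), the surface protein CDCP1 (-0.68), the volume-regulated channel subunit LRRC8C (-0.67), TOR4A (-0.60), FAM83H (-0.56), PDCD2L (-0.55), ARAP2 (-0.55) and TMED5 (-0.49) completed them.

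The FOXO-induced genes had the highest median of the 20 pathway lists, 0.65, with 26 of 28 members above 0. Of the 28 members 4 rose and 0 fell. With the 5 arrays alone or batch 6 alone 1 member rose, while with a trended and robust variance prior 7 did. FBXO32 (atrogin-1), a ubiquitin ligase subunit, had the largest rise of the comparison. It measured 8.77 and 8.52 with gefitinib, against 6.88, 6.75 and 6.19 without it (2.04 ± 0.377, adjusted p = 0.00659 by limma), which is 4.11-fold higher with gefitinib. All of the other probe sets of FBXO32 also lay higher with gefitinib.

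CDKN1B (p27), an inhibitor of cyclin-dependent kinases, measured 9.72 and 9.69 with gefitinib, against 8.85, 9.08 and 9.05 (0.72 ± 0.167, adjusted p = 0.0408). GADD45A, which acts in growth arrest after DNA damage, measured 11.68 and 11.81, against 10.99, 11.09 and 10.96 (0.73 ± 0.142, adjusted p = 0.00906). SESN1, a sestrin that restrains mTORC1, measured 7.38 and 7.34, against 6.38, 6.86 and 6.82 (0.67 ± 0.144, adjusted p = 0.0202). For all 3 genes the gefitinib arrays lay close together and above each array without inhibitor. Several members with larger differences did not pass. They were TXNIP (1.46 ± 0.524, adjusted p = 0.266), the PI3K inhibitor gene PIK3IP1 (1.25 ± 0.321, adjusted p = 0.0667) and PDK4 (1.24 ± 0.534, adjusted p = 0.421). With either gefitinib array left out, 0 members of the list passed.

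Of 22 apoptosis genes of the BCL2 family and death receptors 2 rose and 1 fell, with a median of -0.17. BMF, a BH3-only protein that promotes cell death, measured 6.18 and 6.12 with gefitinib, against 4.70, 4.75 and 4.67 (1.44 ± 0.312, adjusted p = 0.0219 by limma). TNFSF10 (TRAIL), a death ligand, measured 9.25 and 9.27, against 8.14, 7.82 and 7.83 (1.33 ± 0.282, adjusted p = 0.020). TNFRSF10A, a receptor of that ligand, went the other way, with 9.24 and 9.10 under gefitinib, against 10.67, 10.24 and 10.09 (-1.16 ± 0.207, adjusted p = 0.0052). BCL2L11 (BIM), another BH3-only gene, had a change of 0.63 ± 0.155 that missed the threshold (adjusted p = 0.0575).

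**Figure D2:**
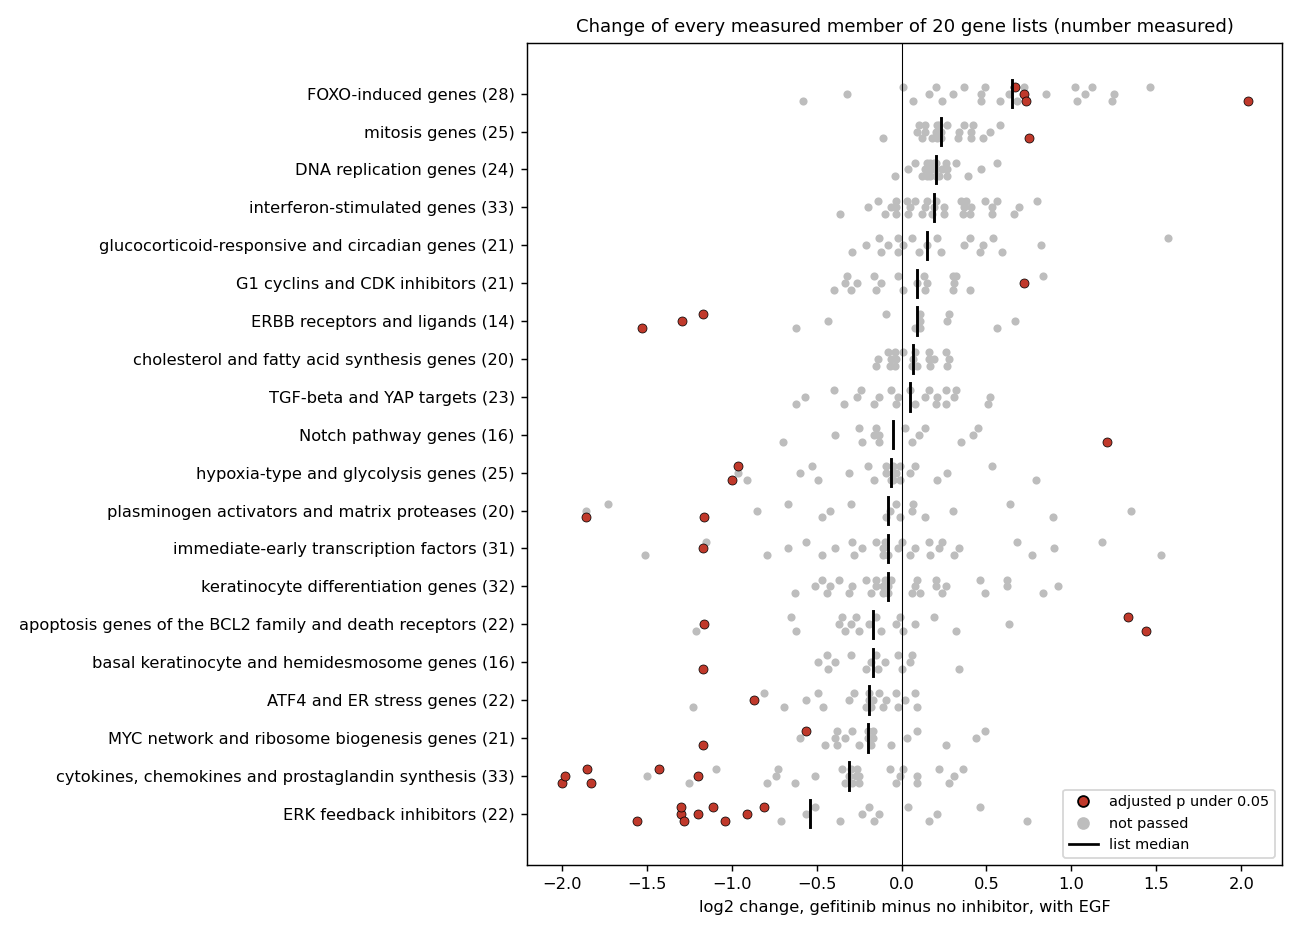
Change in log2 value with gefitinib over no inhibitor, both with EGF (x axis), for every measured member of 20 gene lists (rows, number measured in brackets), ordered by list median (black bar). Red points passed at an adjusted p under 0.05 and grey points did not. Red points lie left of 0 for the ERK feedback and cytokine lists and right of 0 for the FOXO-induced list.

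The cell cycle lists held few calls. Of 25 mitosis genes 1 rose, CDC25C, the phosphatase that activates CDK1 (8.09 and 8.06 with gefitinib, against 7.04, 7.47 and 7.46), and 24 of the 25 lay above 0, with a median of 0.23, which was 0.01 without EGF 4 h replicate 1. Of 24 DNA replication genes 0 passed, 23 lay above 0 and the median was 0.20, or -0.03 without EGF 4 h replicate 1. In both lists EGF 4 h replicate 1 was the lowest array for the members with the largest changes. MCM4, a subunit of the replicative helicase, was at 10.42 and 10.69 with gefitinib, against 9.12, 10.23 and 10.63 without it. TOP2A was at 10.63 and 10.64, against 9.45, 10.31 and 10.38. Among the 21 G1 cyclins and CDK inhibitors CDKN1B was the member that rose. E2F2 (0.83 ± 0.223, adjusted p = 0.0773) and the cyclin gene CCND2 (-0.40 ± 0.105, adjusted p = 0.0706) missed the threshold.

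Other lists had 1 call or 0. Of 16 Notch pathway genes LFNG rose, the glycosyltransferase that modifies Notch (8.68 and 8.67 with gefitinib, against 7.15, 7.73 and 7.51), and the Notch ligand gene JAG1 had a change of -0.70 ± 0.193 (adjusted p = 0.0896 by limma). In the lists for keratinocyte differentiation (32 measured), interferon-stimulated genes (33), cholesterol and fatty acid synthesis (20), TGF-beta and YAP targets (23) and glucocorticoid-responsive and circadian genes (21), 0 members passed. The members furthest from 0 in these lists were KRT1 (0.92 ± 0.560), IFIT1 (0.80 ± 0.230), INSIG1 (0.28 ± 0.174), INHBA (-0.62 ± 0.289) and TSC22D3 (1.57 ± 0.388, adjusted p = 0.0583). In the interferon-stimulated list 25 of 33 members lay above 0 and 8 below, with a median of 0.19 (0.47 with gefitinib in serum). Over all genes 47.5% lay above 0 with EGF. Of the fibroblast, melanocyte, leukocyte and endothelial markers 0 passed. The fibroblast list had the highest of their medians, 0.23, with COL3A1 at 6.10 with gefitinib and 4.90 without it (1.20 ± 0.619, adjusted p = 0.578).

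Most of the rises belonged to none of the lists (24 of 32, against 23 of 50 falls) and were chosen after their values were seen. RIPK4, a kinase of keratinocyte differentiation, measured 11.90 and 11.83 with gefitinib, against 9.87, 10.75 and 10.51 without it (1.49 ± 0.275, adjusted p = 0.00659 by limma). STON1, an endocytic adaptor, measured 6.90 and 6.72, against 5.17, 4.79 and 4.58 (1.96 ± 0.341, adjusted p = 0.00409). OTUD1, a deubiquitinase whose promoter stretch with the FOXO motif is printed above, measured 11.39 and 11.34, against 10.26, 10.04 and 9.88 (1.31 ± 0.252, adjusted p = 0.00906). In these 3 genes the arrays without inhibitor were spread more widely than the gefitinib arrays, and all lay below them. SIK1, a salt-inducible kinase, rose by 0.97 ± 0.160 (adjusted p = 0.00285), and the carbonyl reductase CBR3 and the microtubule-associated MTUS1 had the lowest adjusted p of the rises (both 0.00106), at 0.92 ± 0.140 and 0.90 ± 0.131.

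The other rises were ZNF488 (1.30), SKIDA1 (1.13), the tubulin gene TUBA1A (0.99), PNRC1 (0.94), TMCC2 (0.92), the ubiquitin ligase gene RNF144B (0.81), the nuclear receptor coactivator gene NCOA2 (0.73), TTC28-AS1 (0.73), RMI2 (0.71), BRD8 (0.70), MTMR10 (0.69), ZNF395 (0.67), DSTYK (0.60), CCDC28A (0.58), the homeobox gene IRX2 (0.57), NEMP1 (0.52) and the microtubule regulator gene STMN1 (0.47). TTC28-AS1 is antisense to TTC28. SRGAP2 had a rise of 1.38 ± 0.254 (adjusted p = 0.00659 by limma), with 5.57 at 4 h and 4.79 at 8 h under gefitinib, against 3.30, 3.83 and 4.27 without it. SRGAP2 has near-identical paralogs, so its probe set may not be specific to it.

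Since the groups of all 82 genes did not overlap, their sign was the same at 4 h and at 8 h by choice of the genes. Over all genes 60.7% had the same sign at both times. At 4 h alone, with 1 gefitinib array against 2 without inhibitor, limma called 4 genes, namely IL1A, MMP3, HK2 and SRGAP2, and 1175 had an unadjusted p under 0.05. At 8 h, with 1 array each, it called 0, and 1069 had an unadjusted p under 0.05. The difference between 8 h and 4 h passed for 0 genes (377 at an unadjusted p under 0.05, lowest adjusted p = 1.0). Among the 82 genes SRGAP2 (2.01 at 4 h and 0.51 at 8 h) and IL1A (-2.52 at 4 h and -1.39 at 8 h) had an unadjusted p under 0.05 for this difference, 0.00509 and 0.0376. A single array stands for each time in these values and is assumed to vary like the rest.

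All 82 genes had groups that did not overlap. Over all genes, 17.9% lay lower on both gefitinib arrays than on each array without inhibitor and 14.5% lay higher on both. Other probe sets existed for 55 of the 82 genes, 113 in number, and 98 of them differed in the same direction. This count goes by sign alone and includes differences near 0 with overlapping groups, such as -0.01 for 1 probe set of HBEGF. The other probe sets of RRP12, all dimmer than the one used, differed by 0.17, -0.10, -0.02 and -0.24. Of the 15 in the other direction, 3 had groups without overlap, on IL1A, LRRC8C and RPF1.

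The EGF response of the same line was measured again in batches 2 and 3, on 4 arrays with EGF and 4 starved arrays that the gefitinib comparison does not use. There 395 genes were higher with EGF (2.0%) and 373 lower (1.89%). Of the 395, 384 (97.2%) lay below 0 with gefitinib, with a median of -0.38, and 36 (9.11%) were among the 50 that fell. Of the 373, 353 (94.6%) lay above 0 with gefitinib, with a median of 0.36, and 21 (5.63%) were among the 32 that rose. Over all genes 52.5% lay below 0 with a median of -0.01. By sign, all 50 falls lay above 0 with EGF in these batches. Of the 32 rises, 31 lay below 0 with EGF, and SRGAP2 was the exception at 0.00. HAS2 was the fall with the largest EGF change there (1.77 ± 0.273, adjusted p = 0.00026), and FBXO32 had the largest decrease with EGF among the rises (-1.57 ± 0.292, adjusted p = 0.00154). The EGF counts moved when single arrays were left out. They were 130 higher and 68 lower without the starved 4 h replicate 2 of batch 3, and 199 and 180 without the starved 4 h array of batch 2. Leaving out a 4 h EGF array gave 178 and 131 (batch 2) or 202 and 113 (batch 3 replicate 3), and 245 higher without batch 3 replicate 2.

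**Figure D3:**
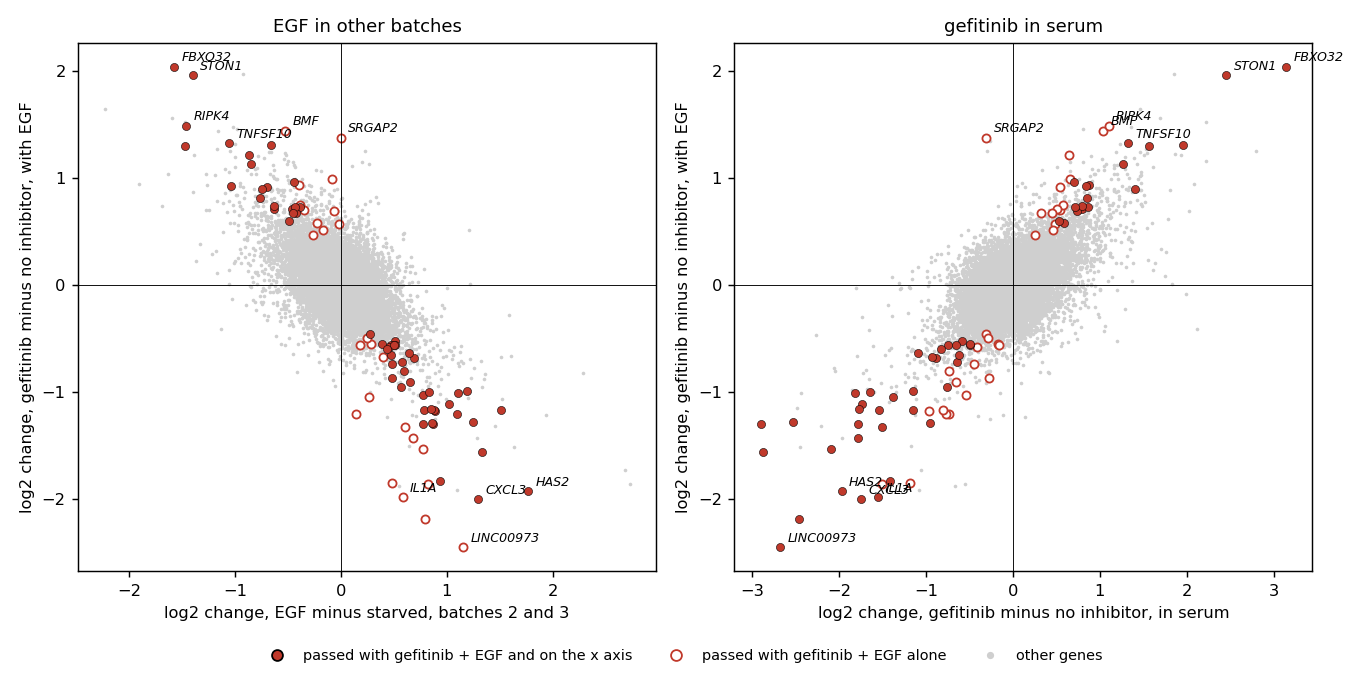
Change with gefitinib over no inhibitor, both with EGF (y axis, log2), against the change with EGF over starvation in batches 2 and 3 (left, x axis) and the change with gefitinib over no inhibitor in serum (right, x axis), 1 point per gene. Filled red points passed on both axes (57 of 82 left and 52 of 82 right) and open red points with gefitinib plus EGF alone. The red points lie on opposite sides of 0 on the left and on the same side on the right, with SRGAP2 apart on the right.

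Gefitinib was also given in serum, on 2 arrays set against 2 serum arrays without inhibitor, all batch 6 and none shared with the EGF comparison. There 145 genes were higher (0.733%) and 163 lower (0.824%). All 50 falls were below 0 in serum as well, 34 of them called, and 31 of the 32 rises were above 0, 18 of them called. Over all 19775 genes 10373 lay below 0 in serum and 9402 above. The serum counts fell to as few as 10 higher and 20 lower without the 8 h gefitinib array, to 18 and 38 without the 4 h serum array, and to 58 and 80 without the 4 h gefitinib array. The difference between the changes with EGF and in serum passed for 0 genes in limma (444 at an unadjusted p under 0.05, lowest adjusted p = 0.0935). DUSP6 measured 7.87 and 7.46 with gefitinib in serum, against 10.55 and 10.59 without it, a change of -2.91, which was 1.61 further from 0 than with EGF (unadjusted p = 0.000352, adjusted p = 0.774). Of the 82 genes 11 had an unadjusted p under 0.05 for this difference, and 7 of the 11 had the larger change in serum, among them DUSP4 and SPRY4. The gene with the lowest p was EGR1, at 10.93 and 12.06 with gefitinib in serum, against 13.18 and 13.43 in serum alone, next to its change of -0.02 with EGF.

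The starved HaCaT-EGFR cells of the same batch, on 3 arrays, place these levels. The mean of the gefitinib arrays lay above all 3 starved arrays for 29 of the 32 rises and within their range for 3. For the 50 falls it lay below all 3 starved arrays for 25, within their range for 23 and above for 2, MMP3 and IL13RA2. Over all genes the gefitinib mean lay above all 3 starved arrays for 13.2%, below them for 22.7% and within for 64.1%. The 82 genes were chosen for high or low gefitinib values, so part of their position beyond the starved arrays is built in. The starved arrays were spread for many of these genes, DUSP4 measuring 7.61, 8.96 and 9.07 and FBXO32 8.29, 7.42 and 7.27.

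Single 4 h arrays of the same line, batch and EGF treatment held the MEK inhibitor U1026 and the PI3K inhibitor LY294002 in place of gefitinib, and their differences were not tested here. The arrays without inhibitor are those of the gefitinib comparison. DUSP6 stood at 9.45 with gefitinib, 10.23 with U1026 and 11.26 with LY294002, against 10.97 and 10.70 without inhibitor. PHLDA1 stood at 10.81 with gefitinib, 12.59 with U1026 and 12.58 with LY294002, against 12.42 and 12.06. FBXO32 stood at 8.77 with gefitinib, 7.97 with U1026 and 8.02 with LY294002, against 6.88 and 6.75. CDKN1B stood at 9.72 with gefitinib, 9.53 with U1026 and 8.85 with LY294002, against 8.85 and 9.08. For the 9 ERK feedback genes that fell, the gefitinib array was the lowest of the 5, and the U1026 array lay between it and both arrays without inhibitor for DUSP4, DUSP6, ERRFI1, DUSP2 and TRIB1. The U1026 array lay above both arrays without inhibitor for PHLDA1, DUSP5 (10.24, against 9.78 and 10.02) and SPRY4 (7.32, against 7.29 and 7.15). For SPRY2 it lay between the arrays without inhibitor. HAS2 stood at 8.49 with gefitinib and 8.97 with U1026, and at 10.06 with LY294002, against 10.75 and 9.99.

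**Figure D4:**
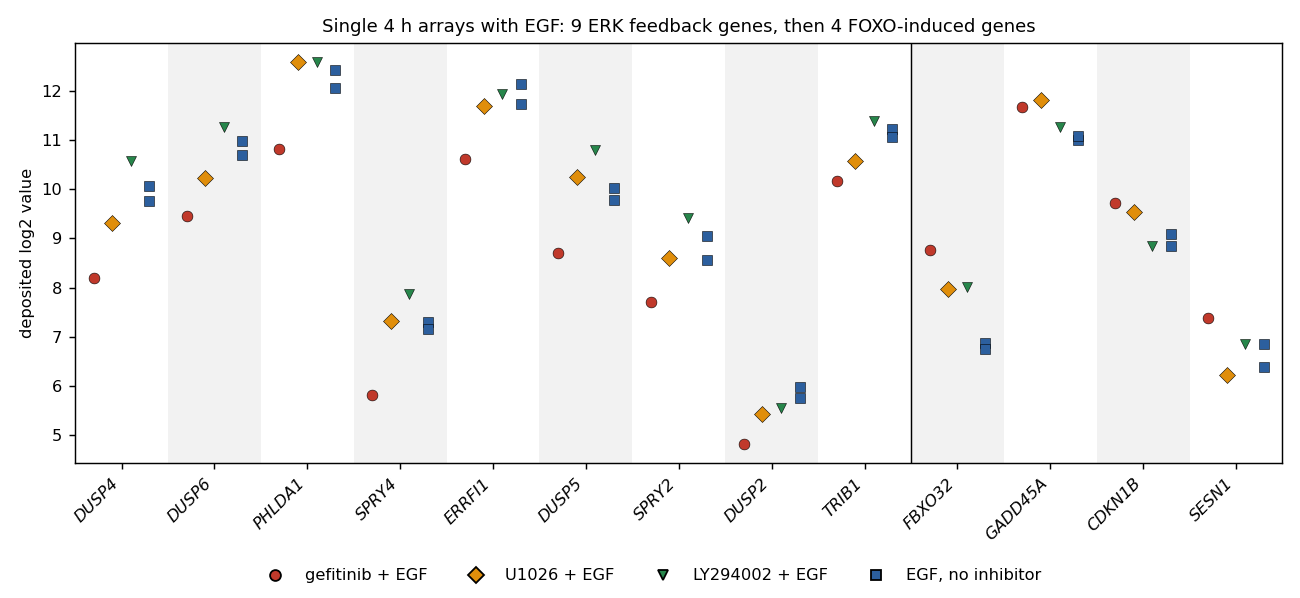
Deposited log2 values (y axis) on single 4 h arrays of HaCaT-EGFR with EGF plus gefitinib (circle), U1026 (diamond) or LY294002 (triangle) and on both 4 h arrays with EGF alone (squares), for the 9 ERK feedback genes that fell and the 4 FOXO-induced genes that rose. The gefitinib point is the lowest for each of the 9 genes left of the line, and for FBXO32 and GADD45A all 3 inhibitor points lie above the squares.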

How the data were processed

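RNA of HaCaT lines was hybridised to 58 Affymetrix U133 Plus 2.0 arrays. The deposited log2 values were made by the authors with fRMA, after which limma batch coefficients were subtracted, so no raw intensities or depths were used. The labels name an extraction and labelling kit, while the study's sample sheet names others for this batch, and all 5 arrays compared share the batch. The array has 54675 probe sets, and those with a single symbol (41097) were used, leaving out 1801 with several and 11777 without one. The probe set with the highest mean over 58 arrays stood for each of 19775 genes. Names came from RefSeq GRCh38.p14 through Entrez IDs (41043 matched, 0 symbols updated).

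limma 3.58.1 in R 4.3.3 fitted 1 mean per condition and batch to all 58 arrays (28 residual degrees of freedom), and the gefitinib change is the mean of 2 arrays minus the mean of 3. A fit that also separated times (19 degrees of freedom) gave the values at 4 h and 8 h. Every adjusted p comes from limma, by the method of Benjamini and Hochberg across the 19775 genes, at a threshold of 0.05. SE is the moderated standard error. The rule named genes passing without each single array (0 did), up to 6 passing members of each of 20 pathway lists, otherwise the member furthest from 0, and EGFR. The other called genes were chosen after their values were seen. List members numbered 544, of which 504 were matched. The comparison, lists and rule were chosen with earlier results of these data known. On simulated data with 50 genes changed at each size, the gefitinib contrast recovered 14 at 0.5 log2 units and 34 at 1. It recovered 48 at 1.5 and 49 at 2. Among all 19775 genes, 5 that were left unchanged were called. The effect of shifts shared by many genes of an array was not tested. The number of arrays limits the precision.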

Additional observations from a re-analysis of the deposited data

Results flagged for a closer look

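SRGAP2 was picked out because gefitinib moved its arrays in opposite directions with EGF and in serum. With EGF it measured 5.57 and 4.79 with gefitinib, against 3.30, 3.83 and 4.27 without it. In serum it measured 4.29 and 4.40 with gefitinib, against 4.53 and 4.77 without it. The change with EGF minus the change in serum was 1.68 (unadjusted p = 9.3e-05, adjusted p = 0.762 by limma), so the difference did not pass over all genes. Another probe set of SRGAP2 differed by 0.58 with EGF, with overlapping groups. The groups compared hold 2 and 3 arrays, too few for a check of single outlying arrays.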

How the results depend on the processing

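With EGF, gefitinib gave 32 genes higher and 50 lower. The counts were 17 and 16 with the 18 arrays of batch 6 alone, 21 and 33 with the probe set of largest variance, 64 and 94 with a trended and robust variance prior, 99 and 146 among genes above the median level (9887 genes tested), and 144 and 214 in the additive model of condition and batch with all 7 EGF arrays. Leaving out single arrays gave 0 to 28 higher and 0 to 37 lower. The cause was not tested. With the other alternatives (the 5 arrays alone, times matched, arrays centred, mean of probe sets) the counts stayed within 1.5 times, but the genes changed. Of the 82, 33 still passed with the 5 arrays alone, 50 with times matched, 66 with centred arrays and 54 with the mean of probe sets. With batch 6 alone 15 of the 82 still passed, and with the probe set of largest variance 47 did. Of 1221 gene values over 15 alternatives, 526 kept their direction and no longer passed. The sign turned for BRD8 (-0.03) and RPF1 (0.25), both with the probe set of largest variance.

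For EGF over starved in batches 2 and 3 (395 higher and 373 lower), centred arrays gave 229 lower, and single arrays left out gave 130 to 504 higher and 68 to 467 lower. The replicate block, pairing arrays of the same batch, time and number, gave 456 higher and 470 lower. The difference between the EGF arrays of a batch and that between its starved arrays correlated at 0.149 in batch 2 and 0.635 in batch 3. In batch 2 these arrays are all number 1 and differ in time. In batch 3 they are all 4 h and differ in number. Nothing in the labels says that a number marks a shared culture. In serum (145 higher and 163 lower) centred arrays gave 94 higher, and single arrays left out gave 10 to 125 higher and 20 to 207 lower. With time as a block, the serum counts were 113 and 158. A replicate block of gefitinib and control arrays of the same time and number, chosen after seeing the data, gave 24 higher and 34 lower with EGF (53 of the 82 among them, EGF 4 h replicate 2 being unpaired and so not used) and 140 and 155 in serum. All of these arrays are number 1, so this pairing is the time.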
